A study of Mus musculus with 7 samples.

Results

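The genes described here are 9 members of the route by which endothelial cells turn blood flow into gene expression through Krüppel-like factors. They are Piezo1, S1pr1, Map2k5, Mapk7, Klf2, Klf4, Nos3, Thbd and Hmox1, out of 21853 protein-coding genes of the annotation. They were chosen by name and not by a value of these data, though with earlier results of these data known. For each gene the locus was its body in GENCODE (mouse, mm10) with 20 kb added on both sides, and every peak that touched the locus was kept. This gave 165 peaks of 606659 in the early G1 list and 114 of 383719 in the late G1 list.

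Open chromatin was measured by ATAC-seq, in which a transposase cuts and tags accessible DNA, in retinal endothelial cells of mice at postnatal day 6. All animals carried the FUCCI reporter, whose fluorescence follows the cell cycle; strain and sex are not given in the sources used here. The early G1 group has 3 libraries of cells without reporter colour and the late G1 group has 4 libraries of red cells, both sorted as CD31+ CD45- cells that excluded propidium iodide, with no drug or other treatment named. The libraries of a group were pooled before peaks were called, so each group is 1 list. The values therefore carry no replicate error, and no test between the groups was possible.

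Laminar flow is sensed at the endothelial surface by channels and receptors, among them the mechanically gated cation channel Piezo1 and the sphingosine-1-phosphate receptor S1pr1. A kinase cascade that ends in MEK5 (Map2k5) and ERK5 (Mapk7) acts on MEF2 transcription factors, which bind the Klf2 promoter. Klf2 and Klf4 are zinc finger factors that raise the endothelial nitric oxide synthase Nos3 and the anticoagulant receptor thrombomodulin (Thbd), and heme oxygenase Hmox1 is an antioxidant enzyme of flow-exposed endothelium that the factor NRF2 controls through antioxidant response elements.

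The early pool held 137191808 fragments and the late pool 124693948. Early peaks covered 40.5% of the sequenced genome and late peaks 13.3%, with median lengths of 1334 and 681 bp, so an early peak is met more often at any position. The pileup of a peak is the mean number of fragments over it, as the authors' peak caller gives it, and not the height of a summit. It is not scaled to depth and is ranked here only within its own list. The median pileup was 26.7 (early) and 49.8 (late). Of 8 defining endothelial genes (Pecam1, Cdh5, Tie1, Tek, Kdr, Erg, Emcn, Cldn5), 6 had an early peak within 1 kb of a start site and 4 had a late one. Tek had none in either list. Of all protein-coding genes 92.6% had an early and 67.3% a late start-site peak, so the 8 endothelial genes did not exceed that background. The 25 markers of photoreceptors, neurons, glia, pericytes and blood cells had such a peak in 25 and 14 cases, so start-site peaks at these markers do not set endothelium apart. The part of other cells in the results was not tested.

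All 9 loci were covered more densely than the genome in the early list and 8 of 9 in the late list. In all protein-coding genes the shares above the genome level were 71.1% (early) and 61.5% (late). Early peaks covered between 46.8% (Klf2) and 54.1% (Klf4) of a locus, a narrow range with a median of 51.4%, against a median of 45.4% over all protein-coding loci, and 6 of the 9 lay above the upper quartile of 50.5%. Late peaks covered between 12.7% (Map2k5) and 22.0% (Nos3), with a median of 15.4% against 14.9% over all loci. The GC content of the loci was above the median of all loci (44.4%) in 8 of 9 cases, with a member median of 46.7%; its part in the coverage was not tested.

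**Figure D1:**
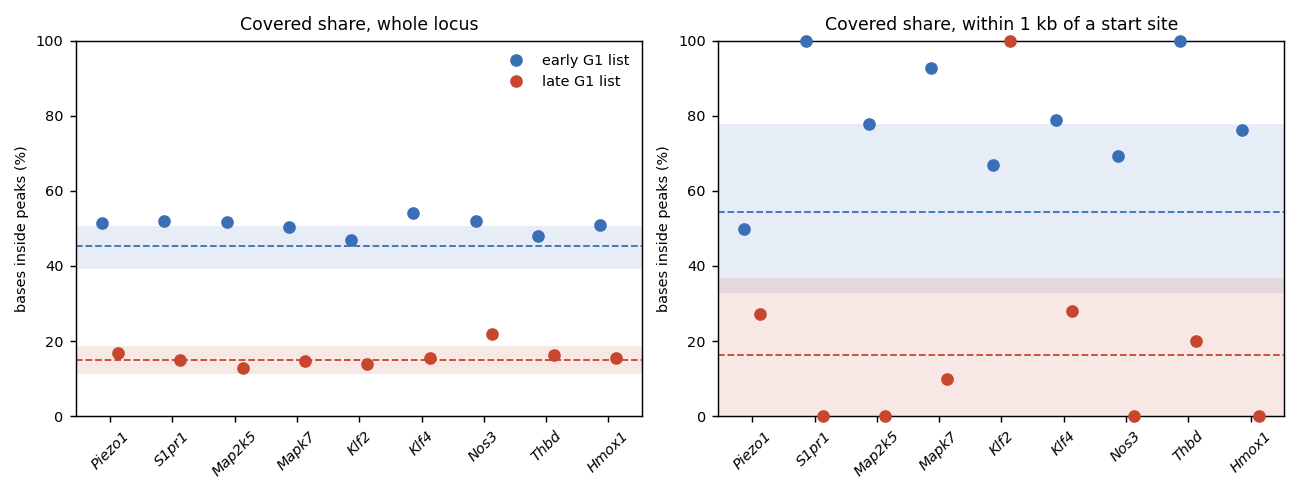
Share of bases inside peaks (%, y axis) for each of the 9 genes (x axis), over the whole locus (left) and within 1 kb of its start sites (right), blue for the early G1 list and red for the late G1 list; dashed lines and bands are the median and the quartiles of all protein-coding genes. The 9 early locus values lie between 46.8% and 54.1%, while the late start-site values run from 0 to 100%.

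The ratio of late to early covered bases ranged from 0.25 in Map2k5 to 0.42 in Nos3, with a median of 0.30 against 0.34 over all loci. In number, Klf4 alone had more late than early peaks (11 and 8), as did 4.49% of all genes. Counted per length of locus, early peaks were sparsest at Klf4, at 1.77 per 10 kb, and densest at Mapk7, at 2.85. Late peaks were sparsest at S1pr1 (1.12 per 10 kb) and densest at Mapk7 (2.63).

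**Figure D2:**
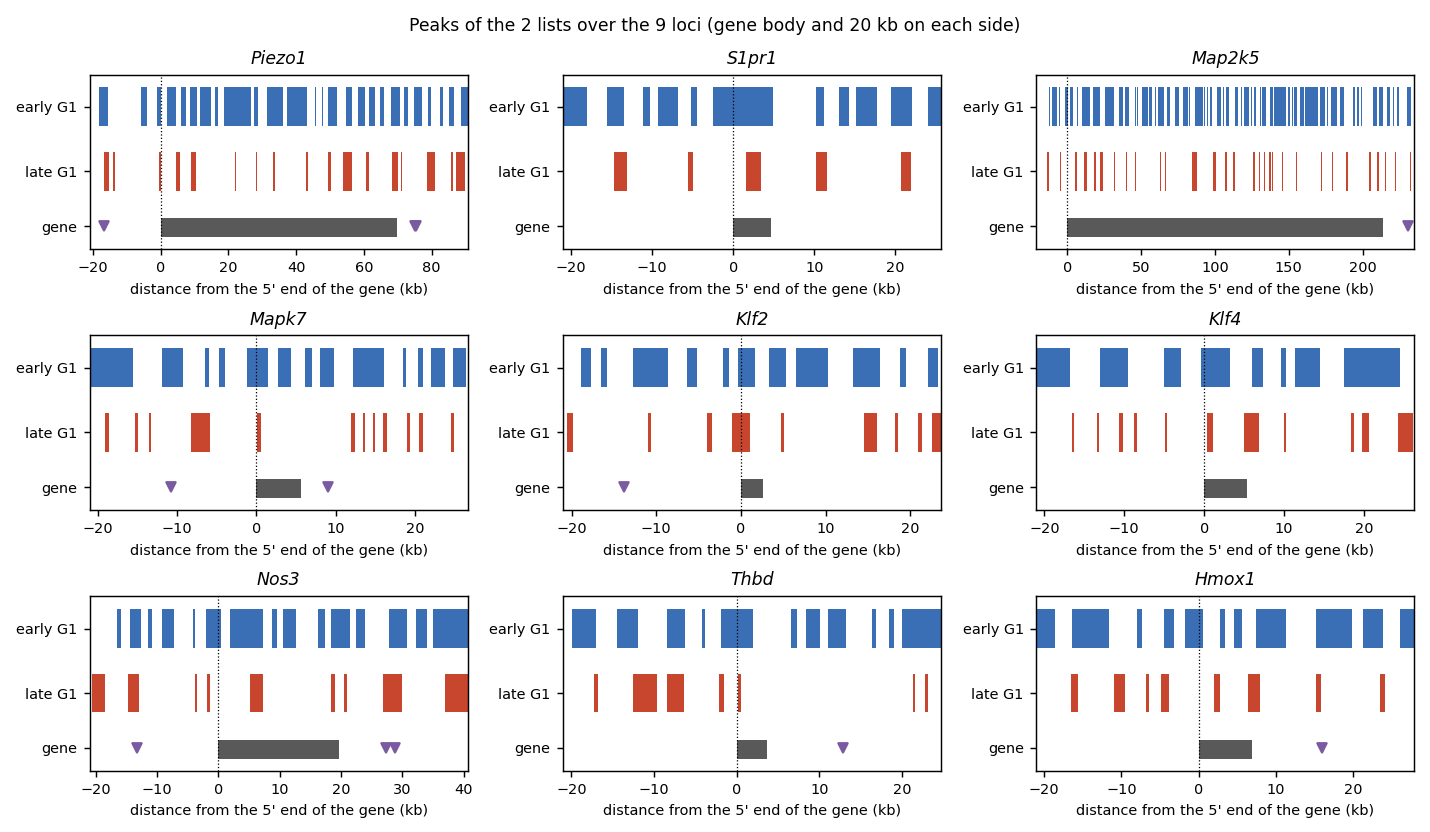
Map of the peaks at each gene, early G1 (blue) above late G1 (red), with the gene body in grey and the start sites of neighbouring protein-coding genes as violet triangles; the x axis is the distance in kb from the 5' end, in the direction of transcription. An early peak touches or lies beside the dotted start line at all 9 genes, and a late peak does so at 5.

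Start sites divided the 9 genes. In the early list all 9 had a peak within 1 kb of a start site, where 92.6% of all protein-coding genes had one. In the late list it was 5 of 9 (Klf2, Klf4, Thbd, Mapk7, Piezo1), where 67.3% of all genes had one. Map2k5, S1pr1, Nos3 and Hmox1 had an early peak only, a pattern of 28.4% of all genes. No gene had a late start-site peak only (3.07% of all genes) or none at all (4.3%), and the 5 late genes had a peak in both lists (64.3%). With so few genes these counts are not read as a departure from the background. When each list was limited to its upper part by the authors' score, Klf4 alone of the 9 kept a late start-site peak (31.8% of all genes), and Klf2 and Nos3 lost the early one. In pooled cells, fewer cells with an open site and less opening per cell cannot be told apart. At least 1 annotated start base, counting every start site of a coding transcript, lay inside an early peak in 8 genes (71.6% of all genes) and inside a late peak in 3, namely Klf2, Klf4 and Mapk7 (41.1% of all genes). In Klf4 and Mapk7 this late start base lies downstream of the 5' end of the gene, which was inside a late peak in Klf2 alone. These 3 genes had a start base inside peaks of both lists (34.2% of all genes).

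The membrane sensor Piezo1 (ENSMUSG00000014444.17, chromosome 8, 122481698 to 122551329, minus strand) had 26 early and 18 late peaks over its 69632 bp body and flanks. Covered shares of the locus were 51.4% and 16.9%. Within 1 kb of the start, early peaks covered 49.9% of bases and late peaks 27.1%. Positions below are in bp from the 5' end of the gene, negative upstream. The early start-site peak ran from -1109 to -2 and the late one from -560 to -18, so both stopped just short of the start base and lay on the promoter side. This is the 1 gene of the 9 whose start base was outside the early peaks.

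The promoter of Piezo1 is shown because both peaks end at its 3' edge. It is given 5' to 3' on the gene's strand from the RefSeq table (GRCm38.p6), with the reverse complement of the shear stress word GAGACC in capitals; the early peaks hold 249 and the late peaks 233 of its 250 bases (chr8:122551330-122551579).
Piezo1: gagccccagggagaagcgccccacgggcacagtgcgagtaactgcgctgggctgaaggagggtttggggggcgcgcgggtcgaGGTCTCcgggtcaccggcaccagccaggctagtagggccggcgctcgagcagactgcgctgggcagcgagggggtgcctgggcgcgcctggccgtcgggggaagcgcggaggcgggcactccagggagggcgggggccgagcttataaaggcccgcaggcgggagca
GAGACC, searched on both strands, occurred in 17.0% of the 20143 promoters of the table. Those promoters, here and in the other shares of promoters given, are 300 bp long, from 250 bp before the RefSeq start to 50 bp after it, so they are longer than the stretches printed. Inside the body, 17 early peaks had their centre in introns or exons, as did 11 late ones. The strongest late peak of the locus, with a pileup of 294.4, lay upstream at -14213 to -13548 and overlapped no early peak. It lies between Piezo1 and Cdt1, the replication licensing gene, whose start lies at -16686 and had a peak in both lists.

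S1pr1 (ENSMUSG00000045092.8, chromosome 3, 115710433 to 115715072, minus strand) had the longest early start-site peak of the 9 genes. It covered 7398 bp, from -2448 to 4949, and so the whole gene, with a pileup of 40.2, above 97.6% of early peaks. In the late list the start window held no peak; the nearest lay inside the gene at 1603 to 3431, with a pileup of 49.2, and upstream at -5581 to -4963. The 11 early and 5 late peaks covered 52.1% and 14.8% of the locus. Every late peak overlapped an early one, and 82.9% of late bases were inside early peaks, the highest share of the 9 loci.

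The kinase gene Map2k5 (ENSMUSG00000058444.8, chromosome 9, 63163768 to 63377902, minus strand) is the longest of the set, with 59 early and 35 late peaks. Most were intronic, 49 early and 29 late. Covered shares were 51.8% and 12.7%, the latter the lowest of the set. Its start-site peak was in the early list only and ran from -1792 to 555, with a pileup of 30.7 (above 76.7% of early peaks). No late peak lay between -4646 and 5092.

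The promoter of Map2k5 is shown as one that early peaks held whole (250 of 250 bases) and late peaks did not touch (chr9:63377903-63378152). Capitals mark the reverse complement of the ETS word CCGGAA, which was found in 19.2% of promoters; ETS factors are common regulators of endothelial genes.
Map2k5: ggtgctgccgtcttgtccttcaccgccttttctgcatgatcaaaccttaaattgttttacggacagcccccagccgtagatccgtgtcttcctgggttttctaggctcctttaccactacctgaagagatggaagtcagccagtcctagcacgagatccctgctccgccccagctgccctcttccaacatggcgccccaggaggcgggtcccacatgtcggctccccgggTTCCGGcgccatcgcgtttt
Genes with this word in the promoter had a start-site peak in 96.4% (early) and 73.6% (late) of cases, against 93.3% and 68.4% of all genes in the promoter table.

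Mapk7 (ENSMUSG00000001034.17, chromosome 11, 61488812 to 61494406, minus strand), which encodes the kinase that MEK5 activates, had 13 early and 12 late peaks, covering 50.4% and 14.6% of the locus. It has 3 annotated start sites of coding transcripts. A pair of early peaks, at -1133 to 1465 and 2677 to 4389, covered 92.9% of their windows. The late peak at 129 to 532 covered 10.0% and was among the weakest of its list, with a pileup of 21.7 (above 7.0% of late peaks). Late peaks at this locus stood out elsewhere: one at 14706 to 14985 had a pileup of 294.6, above 98.9% of the list. No late peak centre lay inside the gene body other than the start-site peak.

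Klf2 (ENSMUSG00000055148.7, chromosome 8, 72319033 to 72321656, plus strand) was the only one of the 9 whose start window was covered further in the late list, 100% against 67.0%. This order was found in 15.7% of all genes, so 1 gene in 9 is near the background, and Klf2 had no start-site peak in either list once each was limited to its upper part by score. The late peak ran from -1001 to 1110 and the early peak from -340 to 1660. Both were weak for their lists, with pileups of 28.3 (above 25.6% of late peaks) and 26.2 (above 45.6% of early peaks). The locus had 11 early and 9 late peaks and covered shares of 46.8% and 13.9%, the lowest early value of the set. The late peak with the highest pileup, 71.1, lay downstream at 14566 to 16064 and overlapped an early peak.

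The Klf2 promoter is shown because it holds the MEF2 consensus through which the kinase cascade is known to act. It lies entirely inside a peak of both lists, 221 of 221 bases (chr8:72318812-72319032), and is printed up to the base before the first annotated start, with the MEF2 match in capitals.
Klf2: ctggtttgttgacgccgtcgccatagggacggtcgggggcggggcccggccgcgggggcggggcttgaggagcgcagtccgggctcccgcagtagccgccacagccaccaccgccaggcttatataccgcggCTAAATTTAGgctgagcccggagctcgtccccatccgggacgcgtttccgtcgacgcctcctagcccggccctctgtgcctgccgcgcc
The match begins at -89 from the GENCODE start. A MEF2 consensus was present in 2.70% of promoters, and among the 5 members with a RefSeq promoter in the table (Klf2, Klf4, Map2k5, Mapk7, Piezo1) it was found in Klf2 only. Over the Klf2 locus there were 6 matches; 3 lay in early peaks and 1, the promoter match, in a late peak too. The 534 genes with a promoter match had a start-site peak in 83.7% (early) and 59.6% (late) of cases, below all genes of the table (93.3% and 68.4%).

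Klf4 (ENSMUSG00000003032.8, chromosome 4, 55527143 to 55532466, minus strand) had 8 early and 11 late peaks, with covered shares of 54.1% (the highest early value) and 15.5%. Its early peaks were long, with a median of 3356 bp against 1257 bp at Klf2. The early start-site peak spanned -430 to 3235, with a pileup of 37.4 (above 95.2% of early peaks). The late one spanned 345 to 1098, over the most downstream of the 3 annotated starts, with a pileup of 83.3 (above 67.9%). This was the only late start-site peak of the 9 genes in the upper part of its list by pileup. A late peak of 276 bp at -13406 to -13131 had the highest pileup of the locus, 181.1, and no early peak at the same place.

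Nos3 (ENSMUSG00000028978.12, chromosome 5, 24364810 to 24384474, plus strand) had 15 early and 9 late peaks and the highest late covered share, 22.0%, beside 52.1% in the early list. The early start-site peak ran from -2071 to 384, with a pileup of 31.7. The late list had no peak within 1 kb of the start, and the nearest, at -1917 to -1417 with a pileup of 64.7, lay inside the bounds of that early peak. A second pair of overlapping peaks was intragenic, early at 1960 to 7334 and late at 5112 to 7292 with a pileup of 129.5. This late peak held 2181 of the 5375 bases of the early one. The flanks also hold the starts of Kcnh2, Atg9b and Abcb8, each with a start-site peak in both lists, and 2 of the 9 late peaks and 3 of the 15 early peaks lay at those starts. The strongest late peak, with a pileup of 150.1, was the one at Kcnh2. Late coverage of this locus thus includes peaks of other genes. The same holds for Piezo1, with 3 early and 3 late peaks at neighbouring starts, Mapk7, with 3 and 1, and Hmox1, with 1 and 1. Thbd and Map2k5 had 1 early peak of this kind each and no late one, and Klf2, Klf4 and S1pr1 had none.

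Thbd (ENSMUSG00000074743.4, chromosome 2, 148404466 to 148408188, minus strand), a gene without introns, had 11 early and 7 late peaks and covered shares of 48.0% and 16.3%. An early peak of 3834 bp, from -1883 to 1950 and with a pileup of 38.5 (above 96.4% of early peaks), covered the start window whole. The late list held only part of this stretch, with 778 of the 3834 bases inside late peaks. A peak at 136 to 536 had a pileup of 39.4 (above 41.2% of late peaks), and a stronger one at -2187 to -1507 had 163.8 (above 91.0%). All 7 late peaks overlapped early ones. The strongest, at -17205 to -16823, had a pileup of 240.1.

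Hmox1 (ENSMUSG00000005413.8, chromosome 8, 75093621 to 75100589, plus strand) had 11 early and 8 late peaks, with covered shares of 51.0% and 15.4%. The start-site peak, from -1719 to 522 with a pileup of 35.0, was in the early list only. The nearest late peaks were at 1967 to 2740 and at -4905 to -3848. Inside the gene the early peak at 4657 to 5568 had a pileup of 53.3, the highest of all 165 early peaks and above 99.7% of the list, with no late peak there. The late peak at 23453 to 24150, past the start of the neighbouring gene Mcm5, had a pileup of 346.7, the highest of all 114.

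A pair of upstream enhancers of Hmox1 is known for clustered antioxidant response elements, and these are the stretches shown. The core word TGACNNNGC was searched on both strands and is in capitals, as its reverse complement, on the plus strand of GRCm38.p6, chr8:75083929-75084034 for the distal and chr8:75089678-75089778 for the proximal stretch.
Hmox1 distal: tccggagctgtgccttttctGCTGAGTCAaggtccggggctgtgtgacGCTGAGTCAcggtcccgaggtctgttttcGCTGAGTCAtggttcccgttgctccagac
Hmox1 proximal: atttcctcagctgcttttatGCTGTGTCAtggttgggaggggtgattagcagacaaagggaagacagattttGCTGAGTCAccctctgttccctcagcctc
The distal stretch, with 3 cores that begin at -9672, -9644 and -9615, lay inside a late peak (106 of 106 bases) and in no early peak. That late peak ran from -10936 to -9560 with a pileup of 24.2, above only 15.3% of late peaks. The proximal stretch, with 2 cores that begin at -3923 and -3871, lay inside peaks of both lists, 101 of 101 bases for early peaks and 96 for late ones. The early peak there had a pileup of 42.0, above 98.4% of early peaks, and the late one had 25.3, above 18.5% of late peaks. Each core that reads GCTGAGTCA also contains the AP-1 word TGANTCA. Of 1491 places in the genome with at least 3 cores starting within 100 bp, 63.3% touched an early and 24.5% a late peak, and 8.92% a late peak only. Over the whole locus 12 of 23 cores lay in early peaks and 9 in late peaks.

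The median pileup of the peaks at the 9 loci was 29.8 early and 65.9 late, above the medians of the whole lists, but late start-site peaks were mostly below them. By fold, the deposited ratio to local background, the early median at the 9 loci was 2.02, below the 2.09 of the whole list. The late one was 4.43, above the 3.85 of the whole list. In number, 119 of 165 early and 64 of 114 late peaks were above the median pileup of their list. At start sites, 9 of 10 early peaks were above it, with a median at percentile 90.6, where early start-site peaks of all genes had a median at percentile 67.2. Of the 5 late start-site peaks 1 was above it, with a median at percentile 25.6 (all genes, 44.2). By fold, start-site peaks of the 9 genes had medians of 2.04 early and 2.38 late, against 2.10 and 3.24 for all genes. The early start-site peaks thus ranked above those of all genes by pileup and not by fold. Start-site peaks of the 9 genes were richer in GC, with medians of 55.5% (early) and 65.5% (late), than distal ones, at 47.2% and 48.0%. The part of GC content was not tested.

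**Figure D3:**
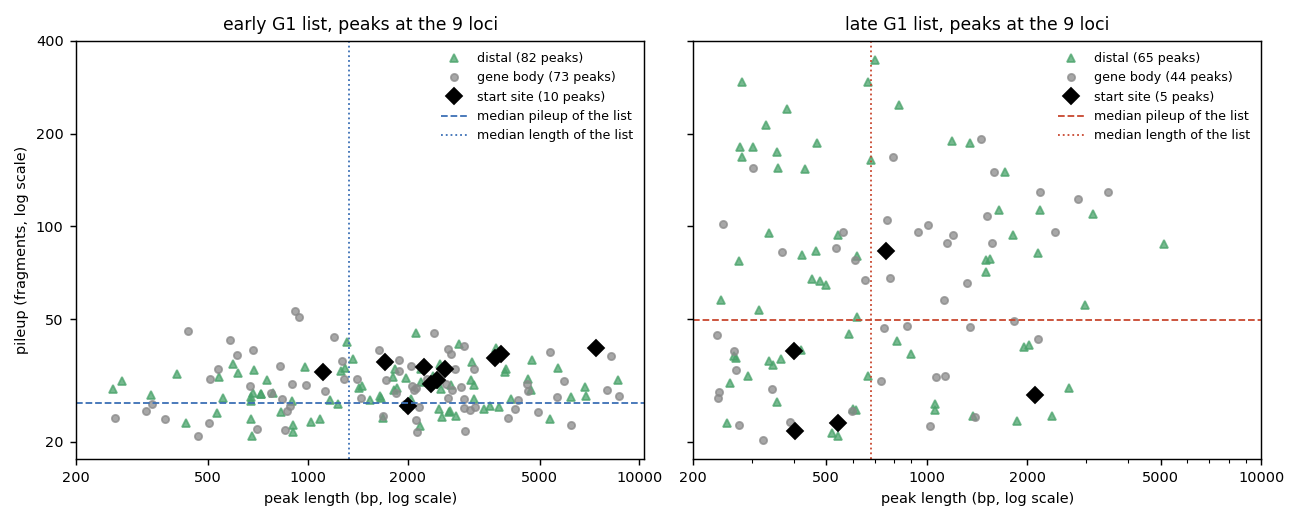
Pileup (fragments, log scale, y axis) against length (bp, log scale, x axis) of each peak at the 9 loci, early G1 list left and late G1 list right, with start-site, gene body and distal peaks marked apart and the medians of each whole list as lines. In the early panel 9 of 10 start-site peaks lie above the list's median pileup, and in the late panel 1 of 5.

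The strongest peak of a locus by pileup in the early list was at a start site in 3 loci (Mapk7, S1pr1, Thbd), in the gene body in 4 and distal in 2. In the late list it was distal in 8 and in an intron of Map2k5 in the ninth. The distal one at Nos3 was the start-site peak of Kcnh2. Of the peaks so chosen, 3 of the 9 early ones overlapped a late peak, and 6 of the 9 late ones overlapped an early peak. These counts were not made over all protein-coding loci, so they are not read as a trait of the 9 genes.

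Of the late peaks at these loci, 86 of 114 (75.4%, exact Clopper-Pearson 95% interval 66.5 to 83.0) shared 1 bp or more with a peak of the early list. The share over the whole late list was 66.4%, just below that interval, which covers counting error only and treats neighbouring peaks as independent. The share was 41.8% against 37.8% when both lists were limited to their upper part by score, and 20.9% against 23.3% with equal numbers of peaks, so the difference from the whole list was not kept. Of the early peaks, 79 of 165 (47.9%, 40.1 to 55.8) overlapped a late peak, against 39.4% of all early peaks. Early peaks covered more of these loci than of the genome, and the part of this in both shares was not tested. In bases, between 41.1% (Hmox1) and 82.9% (S1pr1) of late coverage was inside early peaks, and 47.9% over the genome.

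**Figure D4:**
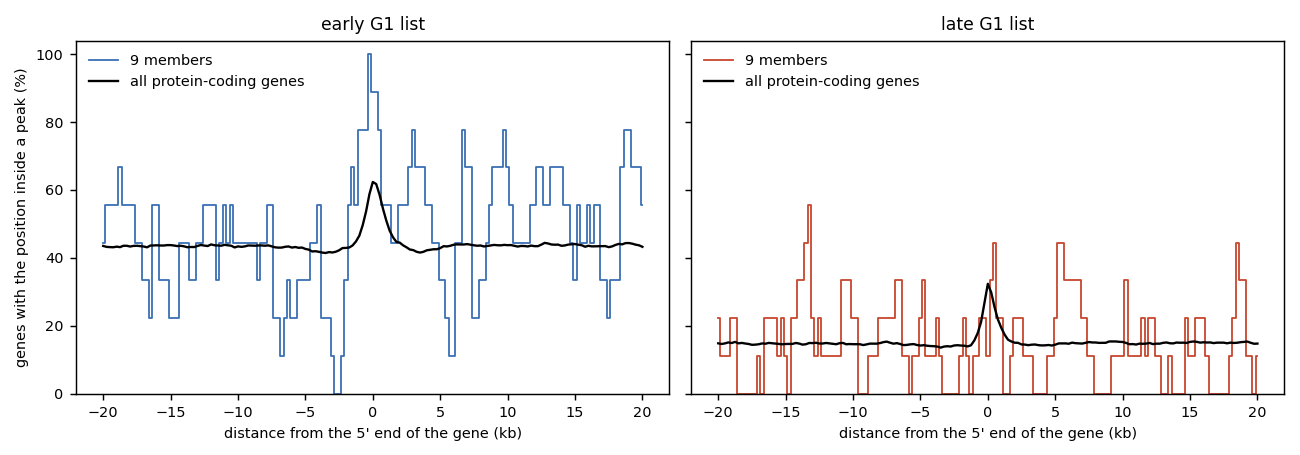
Share of genes (%, y axis) with a given position inside a peak, by distance from the 5' end in kb (x axis), for the 9 members (coloured steps) and all protein-coding genes (black), early G1 left and late G1 right. At 250 bp upstream all 9 members are inside an early peak, and at the 5' end itself 1 member is inside a late peak, while late membership is highest, with 5 of 9, far upstream.

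Along the loci, early coverage was highest next to the start. At -250 bp all 9 genes were inside an early peak, against 58.8% of all genes, and at -2500 bp none was, against 42.2%. At the 5' end itself 1 member (Klf2) was inside a late peak, against 32.4% of all genes, and at 500 bp 4 were, against 25.4%. The largest number of members inside late peaks, 5 of 9, lay far upstream at -13250 bp, against 14.9% of all genes. Each step of this profile is 1 gene, so single positions carry little weight.

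The other 44 genes of the flow response were covered much like all genes. An early start-site peak was present in 43 and a late one in 31, all 31 shared, beside 92.6% and 67.3% of all protein-coding genes; the late count was 11 when the list was limited to its upper part by score, where 31.8% of all genes had such a peak. Median covered shares of the locus were 47.0% and 15.7%. Of 13 sensors and receptors all had an early and 9 a late start-site peak; Pecam1, Kdr, P2rx4 and Gna11 had none in the late list. Pecam1 and Kdr are parts of the junctional flow sensor and Gna11 is a G protein subunit. The late covered share of the locus was highest at Trpv4, a calcium channel (22.6%), P2rx4, an ATP-gated channel (22.4%), and Cdh5, VE-cadherin (21.4%), and lowest at Kdr (6.91%), Pkd2 (11.4%) and Pecam1 (12.8%).

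Among 12 kinases, adaptors and factors 10 had a late start-site peak, and Krit1, an adaptor that restrains the cascade, and Keap1, the inhibitor of NRF2, had none. The MEF2 genes Mef2a, Mef2c and Mef2d and the upstream kinases Map3k2 and Map3k3 all had one in both lists. Late coverage of the locus was highest at Nfe2l2, which encodes NRF2 (23.5%), Ccm2 (21.9%) and Keap1 (18.7%), and lowest at Pdcd10 (5.21%), Mef2c (9.40%) and Krit1 (9.53%). Of 19 targets and flow-regulated products 12 had a late start-site peak. Edn1, the vasoconstrictor endothelin, Nqo1, Vcam1, Icam1, Tek, Plat and Slc7a11 had none. Late coverage was highest at Edn1 (24.4%), Procr (23.9%) and Nqo1 (23.6%), and lowest at Gclc (10.0%), Tek (11.2%) and Icam1 (11.8%). Edn1 and Nqo1 were thus among the densest late loci with no late peak at the start, as Nos3 was among the 9. Kdr (6.91%), Krit1 (9.53%), Tek (11.2%) and Icam1 (11.8%) also lacked one and were among the lowest late loci of their roles. Peaks at starts of neighbouring genes were not counted for these loci. The share of all genes with either pattern was not computed, so neither is read as a trait of the flow response.

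**Figure D5:**
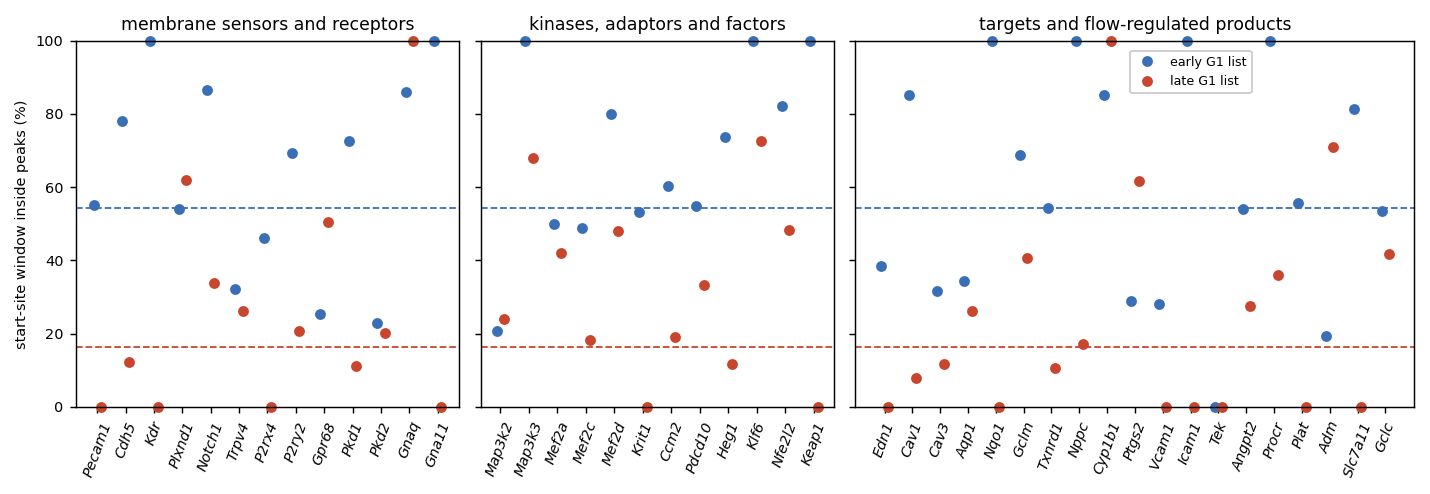
Share of the start-site window inside peaks (%, y axis) for the 44 other genes of the flow response (x axis) in 3 groups by role, blue for early G1 and red for late G1, with dashed lines at the medians of all protein-coding genes. In the late list 13 of the 44 genes sit at 0.

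Sequence words in the central 200 bp of the peaks at the 9 loci are given as a description, beside all peaks of the list. Of the 165 early and 114 late peaks, 10 and 5 were start-site peaks, and 12 and 7 touched start windows of neighbouring genes. In the whole lists 28194 of 606659 early and 17347 of 383719 late peaks lay at start sites of protein-coding genes. The part of start sites and of GC content in the shares of words was not tested. GGGCGG, the SP word, was in 14 of 165 early peaks (8.48%, against 2.21% of all early peaks) and in 8 of 114 late peaks (7.02%, against 2.71%). The shear stress word GAGACC was in 13.3% and 11.4%, against 8.45% and 8.68%. The KLF word GGGNGTGG was in 6.67% and 5.26%, against 4.92% and 5.01%. The MEF2 consensus was in 9 early and 2 late peaks (5.45% and 1.75%, against 4.19% and 3.97%). CACCC was in 35.8% and 40.4%, against 29.7% and 30.7%. The antioxidant response element core was in 6.67% and 4.39%, against 5.53% and 5.67%. The AP-1 word was in 6.67% and 3.51%, against 5.90% and 5.83%. The ETS word was in 1.82% and 3.51%, against 1.67% and 1.88%. The forkhead word GTAAACA was in 3.03% and 2.63%, against 2.87% and 2.82%. In the promoters of the 5 members in the table the KLF word did not occur, while 19.9% of promoters hold it. CACCC was in the promoters of Klf2, Mapk7 and Piezo1, where 60.1% of promoters hold it. GGGCGG was in all 5 genes, where 47.7% of promoters hold it. Nos3, Thbd, S1pr1 and Hmox1 were not in the table. Their nearest KLF matches upstream of the GENCODE start lay at -46, -142, -420 and -3289, in that order. All of these matches lay in early peaks and none in a late peak. Such distances were not computed for all genes, so they are not read as a trait of these genes.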

How the data were processed

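ATAC-seq was made from 3 early G1 and 4 late G1 libraries, grouped by the sample titles; whether they came from separate animals is not given in the sources used here. Per the submitters' processing notes, reads were trimmed (Trimmomatic), aligned to mm10 (STAR) and sorted (bedtools). Broad peaks came from MACS2 2.2.7.1, which the authors ran once per group on pooled fragments, without a control and with duplicates kept, at q-value cutoffs of 0.05 and 0.1, per the file headers. The deposited pileup is a mean number of fragments over the peak, not scaled to depth. The fold is the deposited ratio to local background. The score is the deposited -log10 q-value, identified by column order because its heading was damaged. Copies of 1 fragment can add to a pileup, and a broad call joins neighbouring regions.

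Positions were read as counted from 1. GENCODE M21 (GRCm38, the build of mm10) gave 21853 protein-coding genes; the start window was 1 kb on both sides of each start site of a coding transcript. A peak was called start-site if it touched that window, otherwise exonic, intronic or distal by its centre. The members, lists and tests were chosen with earlier results of these data known. Alternatives were a stricter score threshold, equal numbers of peaks, other flanks, windows and overlaps, and positions counted from 0. All members are named, and other pathway genes by late start-site peak and by the 3 highest and 3 lowest late shares per role. Words were searched exactly on both strands; 5 of 9 members matched the RefSeq promoter table, and Nos3, Thbd, S1pr1 and Hmox1 were not in it. Overlap and word searches were tested on simulated data, with 0 errors in 2000 intervals. Scripts ran in Python 3.11.15 with pandas 2.3.3, NumPy 2.4.6, matplotlib 3.10.9 and SciPy 1.17.1.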

Additional observations from a re-analysis of the deposited data

How the results depend on the processing

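No paired analysis was possible because each group is 1 list from pooled libraries, and for the same reason no library could be left out. Reading positions as counted from 0 moved no count and left the shared percentage inside its interval for counting error. Each median covered share stayed inside a binomial interval that treats bases as independent. Bases of a peak are not independent, so that interval measures no error and serves only as a yardstick. Shorter lists moved most values. With the peaks at or above the median score of each list, start-site peaks of the 9 genes were 7 early (66.6% of all genes) and 1 late (Klf4; 31.8%), and those of the other 44 genes 11 late. With 191859 peaks per list, taken from the top by score, they were 2 early (S1pr1 and Thbd; 47.1%) and 1 late (31.8%), and 11 late for the 44 genes. The late start-site peaks of Klf2, Thbd, Mapk7 and Piezo1 thus rest on the weaker part of the list. A window of 2 kb gave 8 late genes in place of 5 (80.2% of all genes, in place of 67.3%). Median covered shares of the members were 27.6% early and 9.07% late with the stricter threshold, 14.1% and 9.07% with equal numbers, 53.1% and 14.0% with a 5 kb flank and 16.5% late with 50 kb. For the 44 genes they were 27.1% and 6.75%, 16.2% and 6.75%, and 49.1% and 14.5% with 5 kb. Peaks at the loci numbered 91 and 67 with the stricter threshold, 47 and 67 with equal numbers, 105 and 64 with 5 kb, and 295 and 214 with 50 kb. Late peaks shared with early ones were 41.8% (whole late list 37.8%), 20.9% (23.3%) and, with a reciprocal overlap of 50%, 10.5% (10.7%), against 75.4% (66.4%) in the full lists; fewer peaks and a stricter overlap lower this share by construction. The start-site counts of the 44 genes under other settings, and those of single members, were chosen after seeing the data, as were the shares over all genes and whole lists beside them.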
